A study of Homo sapiens with 6 samples.

Results

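The genes described here are 10 parts of the machinery that places, keeps and removes methyl groups on DNA: the methyltransferases DNMT1, DNMT3A and DNMT3B, their cofactor UHRF1, the proteins CDCA7, HELLS and ZBTB24, and the dioxygenases TET1, TET2 and TET3. They were taken by symbol from a table of 36517 genes, and all 10 were found. The set was drawn up with the log2 fold changes of the comparison below already known: members were chosen by symbol and by those values, so their own differences are given as a description, with no test read from them. Messenger RNA was sequenced at day 3 in MDA-MB-453, an established human breast cancer line with luminal and apocrine traits. Cells of the control group carried a lentivirus with a negative-control hairpin (n = 3 libraries), and cells of the shtRF group carried a lentivirus with a hairpin against tRF-1-Ser, labelled as a tRF-1-Ser knockdown (n = 3 libraries). Both groups were the same line, and the labels name 1 hairpin against the target. tRF-1-Ser is a small RNA released from the trailing end of a serine tRNA precursor. These libraries do not measure it, so the knockdown itself could not be checked here. The study reports a qPCR check of knockdown efficiency in its cell lines. Its methods call the replicates biological without stating whether they came from separate transductions.

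DNMT1 copies methylation onto the new strand behind the replication fork, and UHRF1 brings it there by reading hemimethylated sites. DNMT3A and DNMT3B set new methylation, DNMT3B being best known from early embryos, the germline and many tumours. HELLS is a nucleosome remodeller that CDCA7 recruits and activates, ZBTB24 is a zinc finger protein known to drive CDCA7 transcription, and inherited loss of DNMT3B, ZBTB24, CDCA7 or HELLS causes the same syndrome of immunodeficiency with centromeric hypomethylation. The TET enzymes oxidise methylated cytosine as the first step of its removal.

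Libraries held 63541413 to 78917459 counts. Of the luminal and apocrine markers checked, EPCAM was at 194 to 216 RPKM (the read count divided by exonic length and library total), KRT19 at 435 to 484 RPKM and GATA3 at 69.2 to 84.6 RPKM over the 6 libraries, while TFF3 was low at 0.295 to 2.34 RPKM. The leukocyte marker PTPRC did not exceed 0.00811 RPKM and the basal keratins and TP63 did not exceed 0.457 RPKM. PTPRC was thus near 0 and the basal markers were low, with TP63 detected in every library (0.225 to 0.457 RPKM). Of the fibroblast markers, COL1A1 lay at 2.04 to 3.64 RPKM, whereas COL1A2, COL3A1 and DCN did not exceed 0.0251 RPKM.

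The promoters of CDCA7 and HELLS are shown because these partners moved in opposite directions, and that of UHRF1 because it carries the same class of E2F match as both. Each sequence is the stretch of 250 bases before a RefSeq start on GRCh38.p14, with E2F matches and the ZBTB24 core in capitals.
CDCA7 (chr2:173354622-173354871, plus strand): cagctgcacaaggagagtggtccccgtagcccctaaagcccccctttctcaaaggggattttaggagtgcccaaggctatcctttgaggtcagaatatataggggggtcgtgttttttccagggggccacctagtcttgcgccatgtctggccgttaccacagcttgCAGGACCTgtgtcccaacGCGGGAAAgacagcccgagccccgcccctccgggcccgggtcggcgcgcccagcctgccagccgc
HELLS (chr10:94545538-94545787, plus strand): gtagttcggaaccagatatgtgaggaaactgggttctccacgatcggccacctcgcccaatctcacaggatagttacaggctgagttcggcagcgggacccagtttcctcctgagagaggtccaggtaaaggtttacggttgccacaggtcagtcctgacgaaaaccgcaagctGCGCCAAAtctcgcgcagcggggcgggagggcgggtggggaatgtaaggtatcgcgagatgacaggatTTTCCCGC
UHRF1 (chr19:4909251-4909500, plus strand): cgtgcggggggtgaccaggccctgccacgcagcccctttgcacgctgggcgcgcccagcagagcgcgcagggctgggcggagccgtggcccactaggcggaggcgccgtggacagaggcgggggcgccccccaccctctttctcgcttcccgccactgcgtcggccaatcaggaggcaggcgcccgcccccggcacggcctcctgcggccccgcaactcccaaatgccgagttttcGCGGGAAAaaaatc

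Positions below count from the start at 0, with negative numbers before it. CDCA7 held the ZBTB24 core CAGGACCT at -83 to -76 and the E2F match GCGGGAAA at -65 to -58. HELLS held GCGCCAAA at -76 to -69 and TTTCCCGC at -8 to -1, and the UHRF1 window shown held GCGGGAAA at -14 to -7. The E2F search used TTTGGCGC, TTTCCCGC, TTTGCCGC and TTTCGCGC on both strands, in windows reaching from 250 bases before to 50 after a start. Such a match was in 5 of the 21 windows of the 10 members (23.8%) and in 3.31% of all 35114 windows. Some windows of the same gene overlap, and UHRF1 had a match in more than 1 window. The shares are thus a description, and enrichment was not tested. The members with a match were DNMT1, UHRF1, CDCA7 and HELLS, of which DNMT1 did not separate the groups, UHRF1 was slightly lower, CDCA7 was far lower and HELLS was higher in shtRF cells. CAGGACCT on either strand was in 1.55% of all windows, and among the members in CDCA7 alone. The E-box CACGTG, bound by MYC and MAX, was in 7.26% of all windows and among the members in windows of DNMT3A, ZBTB24, TET2 and TET3. In its full window CDCA7 had 20 CpG sites (observed to expected ratio 0.64) and HELLS 22 (0.908). Over all windows the median was 14 sites and the median ratio 0.579, so the ratio of CDCA7 was close to the median. The only window listed for DNMT3B held 3 CpG sites. The windows listed for DNMT3B, HELLS, DNMT1 and UHRF1 all lay downstream of the first exon that the count table gives for the gene, so starts at that exon were not covered. A match is a string of letters, not a bound site.

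CDCA7 was the most reduced member. In CPM (counts brought to a common library total with TMM factors), it was at 47.6, 47.3 and 46.1 in the control libraries and at 15.1, 14.3 and 14.1 in the shtRF libraries. Every shtRF library was far below every control library, and the libraries of each group lay close together. The mean went from 47.0 ± 0.813 (SD, n = 3) to 14.5 ± 0.505 CPM (n = 3), a 3.24-fold reduction and a log2 fold change of -1.69 ± 0.06 (SE). In the whole table, 1.04% of the 19628 tested genes had a lower log2 fold change. CDCA7 spans chr2:173354820-173368997 on the plus strand of GRCh38. Here as for every member, bulk libraries cannot tell fewer cells that make a transcript from less of it per cell.

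HELLS, the remodeller that works with CDCA7, differed the other way. It was at 156.6, 143.0 and 172.2 CPM in the control libraries and at 178.6, 188.7 and 181.4 CPM in the shtRF libraries. The highest control library came close to the lowest shtRF library, though the groups did not overlap. Control cells averaged 157.3 ± 14.6 CPM and shtRF cells 182.9 ± 5.21 CPM (SD, n = 3 each), a log2 fold change of 0.22 ± 0.06 (SE). Of its exonic bases on chr10:94501434-94613905 (plus strand), 4.32% were shared with RP11-119K6.6, which had a log2 fold change of -0.84. Its call was lost without control replicate 2 (adjusted p in edgeR 0.0802) and with limma on log2(RPKM + 1) (adjusted p 0.082).

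**Figure D1:**
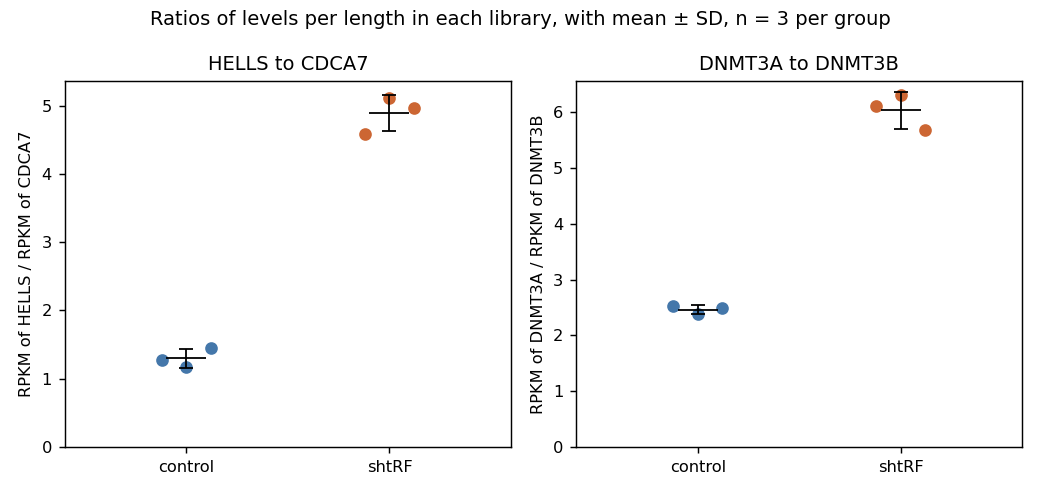
RPKM of HELLS divided by RPKM of CDCA7 (left) and RPKM of DNMT3A divided by RPKM of DNMT3B (right) in each control (blue) and shtRF (orange) library, with mean ± SD as black bars, n = 3 per group. The HELLS to CDCA7 ratio lay at 1.17 to 1.45 in control and 4.59 to 5.11 in shtRF libraries, and the DNMT3A to DNMT3B ratio at 2.38 to 2.52 and 5.68 to 6.32.

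Per length, transcripts of the remodeller and of its recruiter therefore stood in a different proportion between the groups. HELLS was at 15.8 ± 1.36 RPKM and CDCA7 at 12.2 ± 0.274 RPKM in control cells (SD, n = 3), a ratio of 1.3 ± 0.141. In shtRF cells HELLS was at 17.7 ± 0.213 RPKM and CDCA7 at 3.62 ± 0.21 RPKM, a ratio of 4.89 ± 0.271. The plot of the ratios shows no overlap between the groups in either pair. These ratios come from the same libraries and contrast as the folds and carry no test.

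ZBTB24 differed little. It was at 20.4, 21.8 and 23.6 CPM in the control libraries and at 19.8, 19.8 and 18.1 CPM in the shtRF libraries. The lowest control library was only slightly above the highest shtRF libraries, and the groups did not overlap. Its log2 fold change was -0.19 ± 0.07 (SE), and 5.53% of its exonic bases on chr6:109462594-109483237 (minus strand) were shared with MICAL1, which had a log2 fold change of -0.11. Its adjusted p in edgeR was 0.0491 and missed the threshold in 8 of 14 alternative analyses, so ZBTB24 is given by its values only.

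DNMT3B was the most reduced methyltransferase. It was at 15.3, 14.9 and 14.5 CPM in the control libraries and at 4.91, 5.23 and 5.5 CPM in the shtRF libraries. All shtRF libraries were well under all control libraries. The mean went from 14.9 ± 0.409 to 5.21 ± 0.294 CPM (SD, n = 3 each), 2.86-fold, with a log2 fold change of -1.52 ± 0.09 (SE), and 1.43% of tested genes had a lower value. DNMT3B lies at chr20:32762385-32809356 on the plus strand.

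DNMT3A, the other de novo enzyme, was reduced far less. Its control libraries were at 100.3, 92.3 and 93.8 CPM and its shtRF libraries at 77.9, 85.8 and 81.1 CPM, without overlap. The log2 fold change was -0.23 ± 0.06 (SE), a 1.17-fold reduction, over chr2:25227855-25342590 on the minus strand. The proportion of DNMT3A to DNMT3B per length accordingly went from 2.47 ± 0.0731 to 6.04 ± 0.327 (SD, n = 3 each).

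DNMT1, the maintenance enzyme, did not separate the groups. It was at 728.4, 675.5 and 760.2 CPM in the control libraries and at 676.5, 756.2 and 724.8 CPM in the shtRF libraries, so the libraries of the groups were interleaved. The log2 fold change was -0.0045 ± 0.059 (SE), which is smaller than the spread between replicates. DNMT1 lies at chr19:10133345-10231286 on the minus strand and shared 0.704% of its exonic bases with S1PR2.

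UHRF1, the partner that brings DNMT1 to replicated DNA, was slightly lower. Its control libraries were at 392.0, 369.6 and 425.4 CPM and its shtRF libraries at 319.2, 361.9 and 367.1 CPM. The highest shtRF library was just below the lowest control library. The log2 fold change was -0.18 ± 0.06 (SE), a 1.13-fold reduction, over chr19:4903080-4962154 on the plus strand, and its call was lost without control replicate 1 (adjusted p in edgeR 0.0515), control replicate 3 (0.137) or shtRF replicate 1 (0.12).

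**Figure D2:**
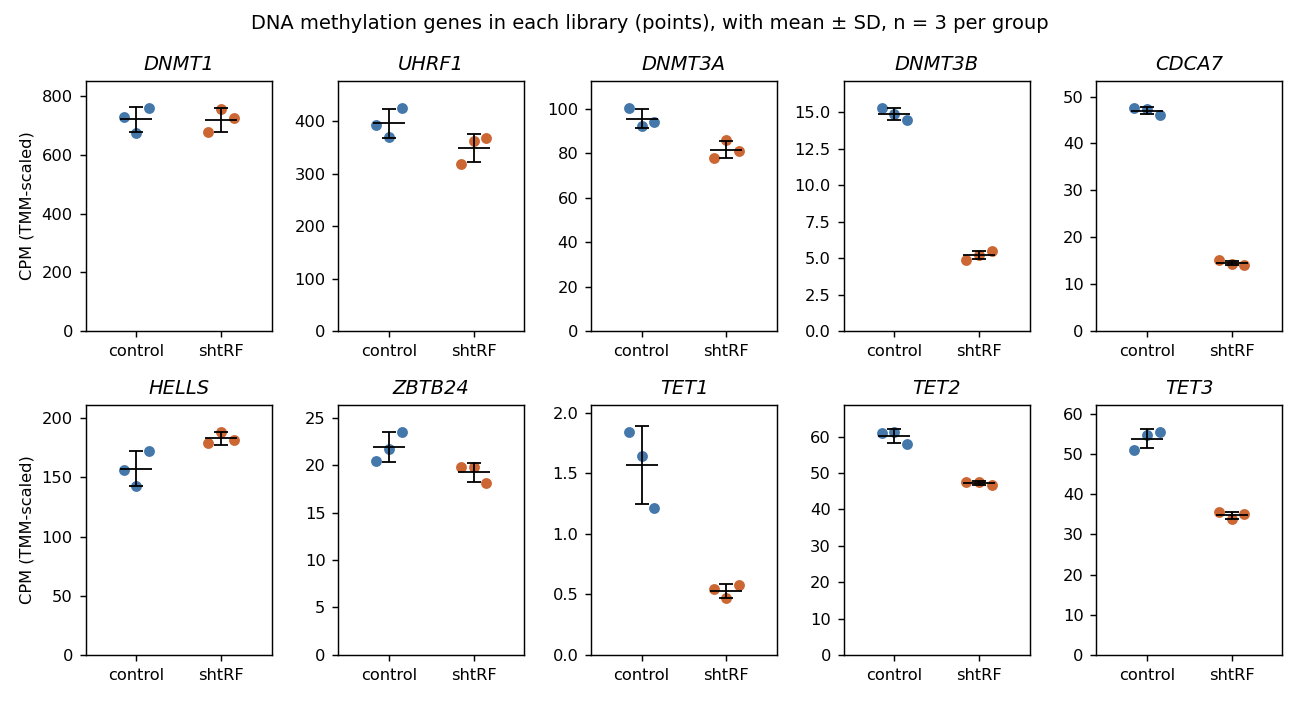
CPM (linear axis from 0, scaled per panel) of the 10 genes in each control (blue) and shtRF (orange) library, with mean ± SD as black bars, n = 3 per group. DNMT3B, CDCA7 and TET1 sit 2.86-fold to 3.24-fold lower in shtRF libraries, DNMT1 overlaps, and HELLS is the member that lies higher.

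All 3 TET genes were lower in shtRF cells, by very different amounts and from very different levels. TET3 was at 51.1, 54.8 and 55.6 CPM in the control libraries and at 35.5, 33.8 and 35.2 CPM in the shtRF libraries. Its groups were well apart, with a log2 fold change of -0.63 ± 0.06 (SE), a 1.55-fold reduction. Levels of TET2 were 61.0, 61.4 and 57.9 CPM in control cells, against 47.6, 47.7 and 46.6 CPM in shtRF cells, again without overlap. Its log2 fold change was -0.35 ± 0.05 (SE), a 1.27-fold reduction. TET3 spans chr2:73986404-74108176 and TET2 chr4:105145875-105279816, both on the plus strand.

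TET1, the TET enzyme known from embryonic stem cells, was close to the limit of what these libraries measure. Control libraries gave it 120, 124 and 97 counts, against 38, 32 and 36 counts in shtRF cells. These counts were non-overlapping but few beside those of TET2 (2890 to 4639) and TET3 (2180 to 4441). The mean went from 1.57 ± 0.321 to 0.529 ± 0.0582 CPM (SD, n = 3 each), with a log2 fold change of -1.56 ± 0.26 (SE), and this SE was the largest of the 10. Its 2.95-fold difference came from a transcript at 0.172 ± 0.0358 RPKM in control cells, over chr10:68560656-68694482 on the plus strand. On the log2(RPKM + 1) scale, which compresses low values, the difference was -0.15.

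Across the 10 members, 8 were called lower, 1 higher and 1 not called by edgeR at an adjusted p of 0.05, and the same 9 had groups that did not overlap. In the background of all tested genes 39.5% were called, 18.9% lower and 20.6% higher, and the groups of 48.7% did not overlap (23.8% lower and 24.9% higher). Since the members were chosen with this contrast known, nothing is read from their count. Their median log2 fold change was -0.29, beside -0.0025 over all tested genes. CDCA7, DNMT3B and TET1 were both called and more than 2-fold lower, as were 3.11% of tested genes.

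**Figure D3:**
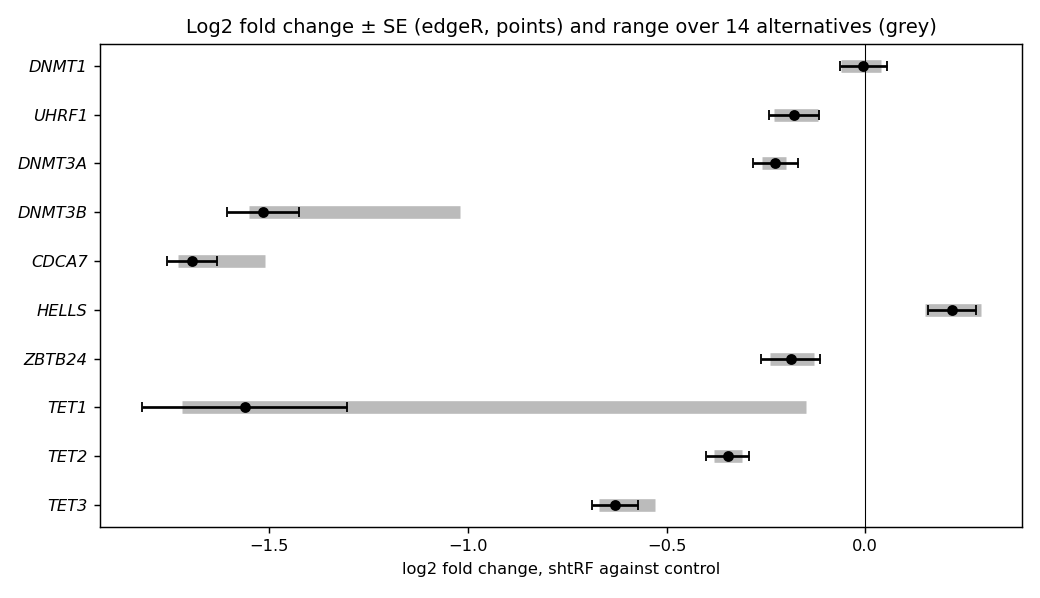
Log2 fold change (shtRF against control, edgeR) of each of the 10 genes, as black points with SE bars, and in grey its range over 14 alternative analyses. CDCA7 (-1.69), TET1 (-1.56) and DNMT3B (-1.52) stand apart from the other 7, which lie between -0.63 and 0.22.

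Levels of different genes were compared per length, in RPKM. In control cells UHRF1 (78.3 ± 5.04 RPKM) and DNMT1 (75 ± 3.96 RPKM) were highest, and their ranges over the libraries overlapped. Within each control library DNMT1 was slightly below UHRF1, at a ratio of 0.939 to 0.976 (mean 0.958 ± 0.0187 SD, n = 3). HELLS (15.8 RPKM), CDCA7 (12.2 RPKM) and DNMT3A (8.08 ± 0.351 RPKM) followed, each apart from its neighbours. TET3 (4.47 ± 0.197 RPKM), ZBTB24 (4.04 ± 0.275 RPKM) and TET2 (3.72 ± 0.141 RPKM) formed a run in which neighbours overlapped. DNMT3B (3.28 ± 0.101 RPKM) and TET1 (0.172 RPKM) were lowest. In shtRF cells DNMT1 (72.0 RPKM) was at rank 1 and UHRF1 (66.6 RPKM) at rank 2, with a DNMT1 to UHRF1 ratio of 1.04 to 1.11. The ratios carry no test. CDCA7 dropped from rank 4 in control to rank 5 in shtRF cells, below DNMT3A at 6.66 ± 0.175 RPKM. TET3 went from rank 6 to rank 8, although it and TET2 overlapped in shtRF cells and did not differ beyond their spread.

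**Figure D4:**
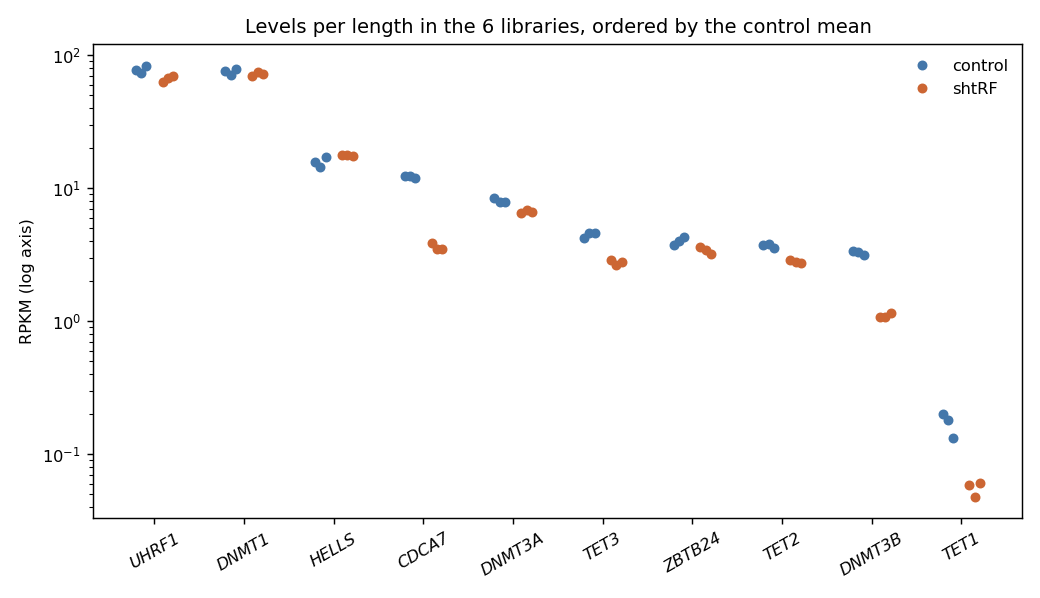
RPKM of the 10 genes (log axis), each point 1 library, in control (blue) and shtRF (orange) libraries. UHRF1 and DNMT1 are highest in both groups, and TET1 (0.172 RPKM in control, 0.056 RPKM in shtRF cells) is lowest in both.

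As shares of the summed RPKM of the DNA methyltransferases, DNMT1 made up 86.8% ± 0.721 in control and 90.3% ± 0.0965 in shtRF cells (SD, n = 3 each), and DNMT3B 3.8% ± 0.251 and 1.39% ± 0.0642. The DNMT pool was thus mostly maintenance enzyme in both groups, with DNMT3B the smallest share. Among the TET enzymes, TET2 went from 44.5% ± 1.46 to 49.8% ± 0.859 of the summed RPKM and TET3 went from 53.5% ± 1.9 to 49.2% ± 0.759, while TET1 was at 2.06% ± 0.433 and 0.988% ± 0.103. The 2 large TET transcripts were therefore near parity in shtRF cells. The share of TET2 was higher in shtRF cells although its level was lower.

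Genes related to the members by sequence or domain were checked next. Of 6, 5 were tested, 2 were called lower, 1 higher and 2 did not pass. Among all tested genes 39.5% were called, 18.9% lower and 20.6% higher, which is the background for this and each later list. CDCA7L, the paralogue of CDCA7, was measured at 52.3, 59.1 and 52.1 CPM in control and 24.5, 27.3 and 28.8 CPM in shtRF cells, a log2 fold change of -1.02 ± 0.07 (adjusted p in edgeR 8.84e-11). Both paralogues were lower in shtRF cells, although 20.5% of the exonic bases of CDCA7L were shared with DNAH11 on the opposite strand, which had a log2 fold change of -0.62. UHRF2, the paralogue of UHRF1, had a log2 fold change of -0.16 ± 0.1 (adjusted p in edgeR 0.199). CXXC4 and CXXC5 carry CXXC domains close to those of TET enzymes. CXXC5 rose by 0.19 ± 0.06 on the log2 scale (adjusted p in edgeR 0.0215, lost in 6 of 14 alternatives), and CXXC4, named after its values were seen, fell from 1.74 to 0.366 CPM. DNMT3L, the catalytically inactive cofactor of the de novo enzymes, had no more than 17 counts in any library and was not tested.

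Of 14 partners of methylation maintenance at replication forks and in chromatin, 7 fell and 7 did not pass, with a median log2 fold change of -0.18. Thus 50% were called, beside 39.5% of all tested genes. PCNA, the clamp that tethers DNMT1, went from 68.1 to 52.0 CPM (-0.39 ± 0.06, adjusted p in edgeR 6.62e-06), and PCLAF, whose ubiquitin marks recruit DNMT1, from 51.5 to 32.3 CPM (-0.67 ± 0.06, 1.63e-08), with 28.8% of its exonic bases shared with CTD-2116N17.1. HDAC1, a histone deacetylase that binds DNMT1, went from 119.4 to 90.2 CPM (-0.41 ± 0.05, 1.17e-06). SETDB1, a histone methyltransferase that works with DNA methylation at silent repeats, fell by 0.49 on the log2 scale (6.79e-07), with 13.4% of its exonic bases shared with CERS2, which was higher at 0.71. LIG1, the ligase that UHRF1 binds, was called lower at -0.17 ± 0.06 (0.0206, lost in 3 of 14 alternatives). USP7, which stabilises DNMT1 and UHRF1, was at 0.02 ± 0.05 (0.75). DNMT1 itself thus did not separate the groups while the clamp that tethers it was lower.

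Of 10 histone-modifying enzymes that steer the methyltransferases, 5 fell, 1 rose and 4 did not pass (median -0.16). Thus 60% were called, beside 39.5% of all tested genes. NSD1 and NSD2, which write the histone H3 lysine marks read by DNMT3A, went from 141.2 to 82.1 CPM (-0.78 ± 0.06, adjusted p in edgeR 4.12e-10) and from 304.8 to 195.4 CPM (-0.64 ± 0.05, 1.85e-09). EZH2, the catalytic subunit of Polycomb repressive complex 2, fell by 0.37 on the log2 scale (8.31e-06). Among 10 genes of the methyl-CpG-binding domain family and of zinc finger readers, 3 rose and 6 fell (90% called, beside the same 39.5%). Not all members of that domain family bind methylated DNA, MBD3, MBD5 and MBD6 being exceptions. ZBTB38, a zinc finger reader of methylated CpG, fell by 0.66 (adjusted p in edgeR 2.59e-06), and MBD5 fell by 0.49 (3.68e-04).

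Of 20 genes of active demethylation and its cofactors, 9 fell, 2 rose and 9 did not pass (median -0.19). Thus 55% were called, beside 39.5% of all tested genes. TDG, the glycosylase that excises the products of TET oxidation, went from 41.5 to 26.8 CPM (-0.63 ± 0.06, adjusted p in edgeR 7.08e-08). IDH2, the mitochondrial enzyme that makes the co-substrate of TET dioxygenases, went from 42.3, 45.6 and 39.2 CPM to 13.0, 15.9 and 15.1 CPM (-1.53 ± 0.08, 9.33e-13). GADD45B, a stress protein linked to demethylation, fell by 0.83 (2.34e-05). IDH1, the cytosolic counterpart of IDH2, named after its values were seen, was higher at 0.57 (8.82e-09), so the 2 isocitrate dehydrogenases moved in opposite directions. The S-adenosylmethionine cycle supplies the methyl donor. Of 8 genes of this cycle or like AHCY, 3 fell, 2 rose and 3 did not pass (62.5% called, beside 39.5% of all tested genes). MAT2A fell by 0.35 (adjusted p in edgeR 4.84e-05, 12.4% of exonic bases shared with GGCX), AHCY by 0.48 (1.96e-06) and MTR by 0.62 (5.51e-09). MAT2B, named after its values were seen, rose by 0.35 (4.24e-04). AHCYL2, an AHCY-like gene rather than a step of the cycle, rose by 0.58 (2.19e-06).

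Several members are transcribed with the cell cycle, so 21 genes of S phase were set beside them. Of these 14 fell, 2 rose and 5 did not pass, with a median log2 fold change of -0.28, beside -0.29 for the 10 members. Thus 76.2% were called, beside 39.5% of all tested genes (18.9% lower and 20.6% higher). CDT1 fell by 0.87 (adjusted p in edgeR 1.35e-08), E2F8 by 0.82 (5.21e-08) and E2F2 by 0.57 (6.29e-06), whereas E2F1 was at 0.17 ± 0.06 (0.0265) and lost its call in 8 alternative analyses, with an adjusted p of up to 0.148. S-phase genes thus moved with the members, and their part in the members' differences was not tested.

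**Figure D5:**
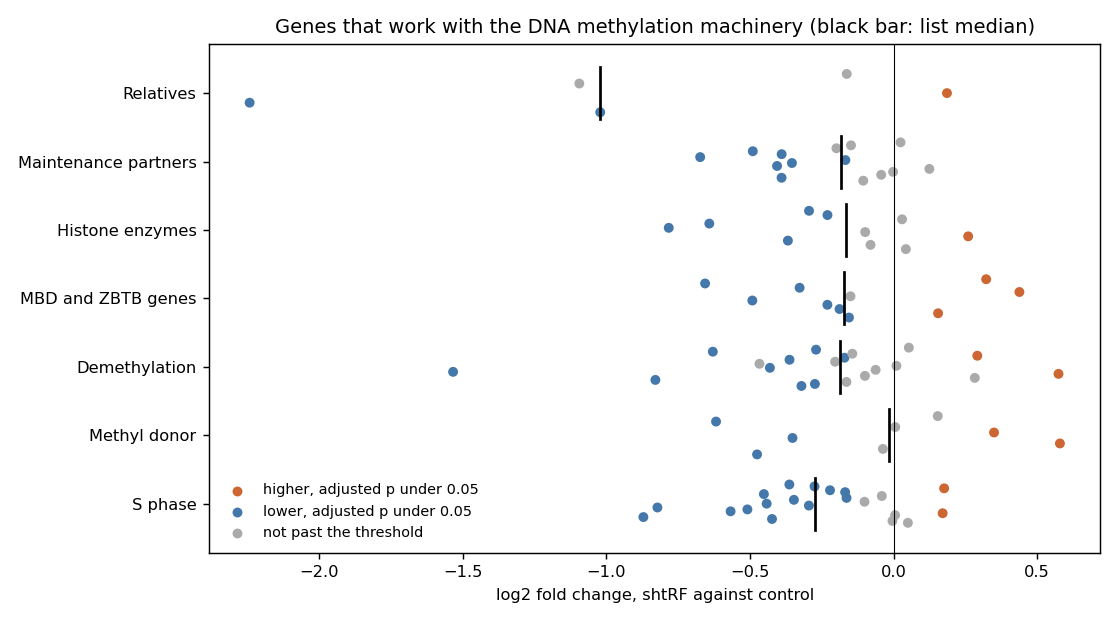
Log2 fold change (shtRF against control, edgeR) of each tested gene in 7 lists of genes that work with the members. Each point is 1 gene, orange where higher and blue where lower at an adjusted p under 0.05, grey where not past the threshold. Black bars mark list medians, which lie at or below 0 in all 7 lists (-0.28 for the 21 S-phase genes). The median of the relatives, -1.02, rests on 5 tested genes and is the value of CDCA7L.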

How the data were processed

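Messenger RNA of 6 MDA-MB-453 libraries (control n = 3, shtRF n = 3) was sequenced as strand-specific read pairs. The authors deposited raw read counts per gene with exon coordinates, strand and exonic length, and RPKM values. Per the submitters' processing notes Trimmomatic 0.36, featureCounts of Subread 1.5.1, edgeR 3.12.1 and GRCh38 were used; the aligner is not given in the sources used here. Even counts made up 74.2% to 77.1% of counts of 1 to 4, against 49.7% to 50.8% of high counts, as when both mates of a pair are counted, so fragments may be fewer than counts. The RPKM values read held 4997 complete gene rows and 1 incomplete row, against 36517 genes with counts, and 6 rows had no matching count. All 29946 RPKM values of matched genes equalled the count divided by length and library total within a relative tolerance of 0.001. That check covers only part of the genes. RPKM was recomputed in this way for every gene. Genes that share exonic bases are named with the share.

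edgeR 4.0.16 (R 4.3.3) was applied to the deposited counts: filterByExpr (minimum count 10), TMM (factors 0.961 to 1.03), quasi-likelihood test with group as the only term, Benjamini-Hochberg adjustment over 19628 genes and a threshold of 0.05. The common dispersion was 0.00572. CPM are counts scaled with TMM factors, and errors are SD over libraries or SE of the log2 fold change. The study's methods call the replicates biological, but separate cultures or transductions are not stated, so p-values measure the spread between these libraries, which may be in part technical. Members and lists were chosen with earlier results of these data known. Named genes were the 10 members, up to 3 genes per list with the largest absolute log2 fold change among called genes with at least 2 CPM, and 10 preset genes. Some genes of the lists are not reported here. Same-numbered libraries of the groups did not deviate together (correlations 0.0185, -0.0029 and 0.0045), so numbers were not used as pairs. Promoter windows and coordinates of starts are RefSeq's on GRCh38.p14. Alternatives were RLE and upper quartile scaling, 2 other filters, DESeq2 1.42.0, limma 3.58.1 on log2(RPKM + 1), halved counts, a replicate block and each library left out.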

Additional observations from a re-analysis of the deposited data

How the results depend on the processing

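In 14 alternative analyses, 134 of 140 log2 fold changes of the members moved by no more than 1 SD between replicates, and no member called by edgeR changed sign, while DNMT1 lay on both sides of 0. The range was -1.73 to -1.51 for CDCA7, -1.55 to -1.02 for DNMT3B, -1.72 to -0.15 for TET1, 0.15 to 0.29 for HELLS and -0.06 to 0.04 for DNMT1. The values nearest 0 for CDCA7, DNMT3B and TET1 were on the log2(RPKM + 1) scale, which compresses low levels. Members called higher numbered 1 with edgeR, 0 with limma on log2(RPKM + 1), and 0 to 1 when each library was left out, 0 without control replicate 2. Members called lower were 6 to 8, and ZBTB24 lost its call in 8 alternatives and UHRF1 in 3. The germline list had 2 genes past the threshold with edgeR, of which 1 was MAGEC1, from which no call is read. When at least 10 counts were required in every library, MAGEC1 was not tested and 1 gene passed. The replicate block gave 4123 genes higher and 3776 lower, against 4046 and 3704 without it, and changed no call of a member or list gene. Of 91 list genes tested, 21 changed a call in some alternative, 0 to the opposite direction. Depth limits TET1, which had 32 to 38 counts in shtRF libraries.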

Other observations

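Genes of the germline and cancer-testis families are commonly silenced by DNA methylation, and 18 of them were looked at as a readout. Of the 15 in the table, 12 had too few counts to be tested, with at most 6 counts in any library (MAGEA4). Control cells gave 4, 3 and 2 counts of MAGEC1 and shtRF cells 519, 525 and 604 counts, so it passed the filter on low counts only through the shtRF libraries and no call is read from it. BRDT, named after its values were seen like SYCP3, had 105, 48 and 114 counts in control and 30, 34 and 20 counts in shtRF libraries. It was called lower (log2 fold change -1.55 ± 0.34 SE, adjusted p in edgeR 8.19e-04), at a low mean of 0.82 CPM. SYCP3 had 50, 46 and 53 counts in control and 23, 29 and 43 counts in shtRF libraries, and did not pass the test.

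The genes whose pattern over the 6 libraries lay nearest to that of HELLS, among 13188 genes with at least 2 CPM, were FAM20A, RP4-605O3.4 and TRIM29, with a mean absolute difference of centred log2(CPM + 1) of 0.0128, 0.0167 and 0.0181. Those nearest to CDCA7 were DOCK2, B4GALNT4 and SLC24A3, at 0.0382, 0.0523 and 0.0554. On the edgeR scale their log2 fold changes were -2.94, -1.93 and -1.73, so DOCK2 was near CDCA7 only on the log2(CPM + 1) scale, which compresses low levels.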
